A study of Mus musculus with 6 samples.

Results

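The subject is 10 liver enzymes of tryptophan breakdown and nicotinamide adenine dinucleotide (NAD) synthesis, taken as a list of gene symbols. They are Tdo2, Ido2, Afmid, Kmo, Kynu, Haao, Acmsd, Qprt, Aadat and Nampt. Most carry tryptophan toward NAD, while Acmsd and Aadat draw intermediates away from it and Nampt rebuilds NAD from nicotinamide. All 10 were found by symbol in the array annotation, each with 1 probe set, among 22180 genes named there. RNA came from livers of male Fah-deficient mice (FAH5981SB, C57Bl/6J background, 12 weeks old), in which a point mutation at the end of exon 8 of Fah makes an unstable, truncated fumarylacetoacetate hydrolase, the last enzyme of tyrosine breakdown, as a model of hereditary tyrosinemia type 1. In the withdrawal group (3 arrays) the mice went without NTBC for 7 days from 11 weeks of age. In the continuous group (3 arrays) NTBC at 8 mg/l in drinking water with 3% dextrose went on throughout, and whether dextrose was kept during withdrawal is not stated. NTBC (nitisinone) blocks the tyrosine pathway upstream, at the enzyme made by Hpd. Mice of both groups carried the mutation, were raised on NTBC and ate a chow low in tyrosine and phenylalanine, and no mice with intact Fah are among these samples. The labels give biological replicates with no animal named for each, and p-values therefore refer to the spread of these arrays.

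Most tryptophan that the liver degrades enters the kynurenine pathway. A dioxygenase opens the indole ring, a formamidase releases kynurenine, and a hydroxylase, kynureninase and a ring-opening dioxygenase then lead to an unstable intermediate that either closes into quinolinate, the precursor of NAD made from tryptophan, or is decarboxylated and burned by way of glutaryl-CoA. Aminotransferases divert kynurenine to kynurenic acid. Cells also rebuild NAD from nicotinamide, the salvage route, which Nampt opens.

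After NTBC withdrawal Kynu, Haao and Qprt of the middle and late steps and Aadat of the kynurenic acid branch were lower. The salvage enzyme was higher, while the entry dioxygenases and the hydroxylase Kmo differed by less than the spread between arrays. Haao, Kynu, Aadat and Qprt fell, by 1.64-fold to 2.65-fold, and the Qprt call held in only 1 of 6 fits with 1 array left out. Nampt rose 4.69-fold. Tdo2, Ido2 and Kmo had log2 changes of 0.08, -0.01 and 0.02. Afmid and Acmsd, with changes of -0.99 and 0.80, did not pass the threshold, and whether Afmid passed depended on the setting. A call here means a Benjamini-Hochberg adjusted p under 0.05 in limma, adjusted over all 34472 probe sets, for withdrawal minus continuous NTBC on the log2 scale.

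By that rule 5 of the 10 enzymes were called, 4 lower and 1 higher, where 9.40% of all probe sets were called (3.20% lower and 6.21% higher). All 10 were among the brightest 25% of probe sets (mean log2 signal of 6.71 or more), where calls were commoner, at 25.3% (7.66% lower and 17.7% higher). The median change of the 10 was -0.36, against -0.08 for all probe sets. The groups did not overlap for 5 of the 10, the same 5 that were called, against 27.6% of all probe sets (13.7% with withdrawal lower and 13.9% with withdrawal higher). With a change of at least 2-fold asked as well, Haao and Kynu were lower and Nampt was higher, against 1.25% and 2.17% of all probe sets. The median change and the shares for overlap and for 2-fold calls were not worked out for the brightest probe sets alone.

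The promoters of 4 called members are shown here, Haao, Aadat and Qprt because they fell together and Nampt because it rose. Each runs from 250 bases before to 50 bases after the annotated start, 5′ to 3′ on the strand of the gene, from RefSeq on GRCm38.p6. Of the 10 enzymes, 8 had an entry in that table, and Kynu and Ido2 are named only. Capitals mark matches, on either strand, to a CCAAT box (CCAAT), a GC box (GGGCGG), an HNF1 half-site (GTTAAT), a nuclear receptor half-site (AGGTCA), a glucocorticoid receptor half-site (TGTTCT) or the core of an antioxidant response element (TGACNNNGC).
Haao (chr17:83846741-83847040, minus strand): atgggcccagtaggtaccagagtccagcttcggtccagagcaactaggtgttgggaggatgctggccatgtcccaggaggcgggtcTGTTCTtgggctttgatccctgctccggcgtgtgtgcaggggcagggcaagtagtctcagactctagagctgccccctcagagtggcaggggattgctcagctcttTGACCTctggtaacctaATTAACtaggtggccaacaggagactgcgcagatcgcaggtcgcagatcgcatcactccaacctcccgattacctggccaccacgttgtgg
Aadat (chr8:60505874-60506173, plus strand): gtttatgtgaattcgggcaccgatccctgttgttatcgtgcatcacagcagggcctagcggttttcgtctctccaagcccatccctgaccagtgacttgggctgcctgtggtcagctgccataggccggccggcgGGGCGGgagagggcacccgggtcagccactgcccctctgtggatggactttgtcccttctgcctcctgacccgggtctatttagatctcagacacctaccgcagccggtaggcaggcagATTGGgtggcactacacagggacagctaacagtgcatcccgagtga
Qprt (chr7:127121980-127122279, minus strand): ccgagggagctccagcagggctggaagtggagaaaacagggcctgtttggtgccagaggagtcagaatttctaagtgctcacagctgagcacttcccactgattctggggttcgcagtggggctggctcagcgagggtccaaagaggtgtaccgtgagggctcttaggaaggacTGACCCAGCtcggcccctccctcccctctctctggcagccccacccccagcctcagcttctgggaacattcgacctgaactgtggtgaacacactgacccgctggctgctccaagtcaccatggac
Nampt (chr12:32820085-32820384, plus strand): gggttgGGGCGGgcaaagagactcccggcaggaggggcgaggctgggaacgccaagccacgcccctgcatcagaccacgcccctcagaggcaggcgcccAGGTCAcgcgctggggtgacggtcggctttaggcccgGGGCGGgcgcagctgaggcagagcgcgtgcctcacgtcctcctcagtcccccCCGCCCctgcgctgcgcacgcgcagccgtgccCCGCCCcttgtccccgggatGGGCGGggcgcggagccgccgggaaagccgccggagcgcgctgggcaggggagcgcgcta

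The promoters of the 3 falling genes had none of the searched motifs in common. Haao had an HNF1 half-site beginning 41 bases before its start, a nuclear receptor half-site 58 bases before it and a glucocorticoid receptor half-site 164 bases before it. Aadat had a GC box and a CCAAT box, and Qprt had an antioxidant response core 76 bases before its start. Nampt held 5 GC boxes and a nuclear receptor half-site in a window of 76.3% G and C, against a median of 52.7% over all promoters. Among 32851 promoters of this length, 7.1% held the HNF1 half-site, 16.3% the nuclear receptor half-site, 19% the glucocorticoid receptor half-site, 12.4% the antioxidant core, 35.7% a GC box and 37.4% a CCAAT box. A TATA box (TATAAA, 13.6% of promoters) and an E-box (CACGTG, 7.15%) were also searched, and neither was in these 4 windows. The antioxidant core and the nuclear receptor half-site can share letters, as they did in Tdo2, whose promoter is not printed. A match is a run of letters and not a measured binding site.

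Array facts that touch these results are few. Signals are normalized intensities on the log2 scale, and levels of different probe sets cannot be set against each other. Median log2 signals over all probe sets were 5.21 to 5.39 on the withdrawal arrays and 5.29 to 5.44 on the continuous ones. All 10 enzymes lay above the lower quartile of every array (4.03 to 4.16 with withdrawal, 4.11 to 4.26 with continuous NTBC). Fah had a log2 change of -0.15 (SE 0.22, limma adjusted p = 0.718), and Hpd fell by 0.64 (SE 0.15, limma adjusted p = 0.021). Hepatocyte markers were bright on all arrays. Their mean log2 signal over 7 markers was 12.01 to 12.18 after withdrawal and 12.27 to 12.37 with continuous NTBC. Of the 7, 1 fell, Cps1 of the urea cycle, and the median change was -0.05. At an unadjusted p under 0.05, 2 were lower. The groups did not overlap for 3 of the 7, all with withdrawal lower (13.7% of all probe sets). Unadjusted counts here and below use a cut that many probe sets passed. The macrophage marker Cd68, at an unadjusted limma p of 0.0499, ranked 8112 of the 34472 probe sets. Sinusoidal endothelial markers averaged 7.91 to 7.99 after withdrawal and 7.34 to 7.62 with continuous NTBC. Of these 8 markers 2 rose, Lyve1 and Clec4g (6.21% of all probe sets and 17.7% of the brightest ones were called higher). In that list 5 of 8 were higher at an unadjusted p under 0.05, and the groups did not overlap for 7 of 8, all with withdrawal higher (13.9% of all probe sets). Kupffer cell and macrophage markers overlapped between groups (6.64 to 7.16 and 6.65 to 6.95), with 0 of 10 past the limma threshold and 1 at an unadjusted p under 0.05. Stellate cell, cholangiocyte, neutrophil and lymphocyte lists had 0 members past it in limma (2, 1, 1 and 1 at an unadjusted p under 0.05), with Epcam, S100a8 and Klrb1c below the lower quartile of all 6 arrays. Of 5 dendritic cell markers 1 fell, Cd209a (3.20% of all probe sets were called lower). Exocrine pancreas markers averaged 5.21 to 5.74 on the withdrawal arrays, 5.43 and 5.67 on continuous replicates 1 and 3, and 7.05 on continuous replicate 2, which thus stood apart. The part of these cell type signals in the results was not tested. In whole liver, fewer cells of a type and less RNA per cell cannot be told apart.

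**Figure D1:**
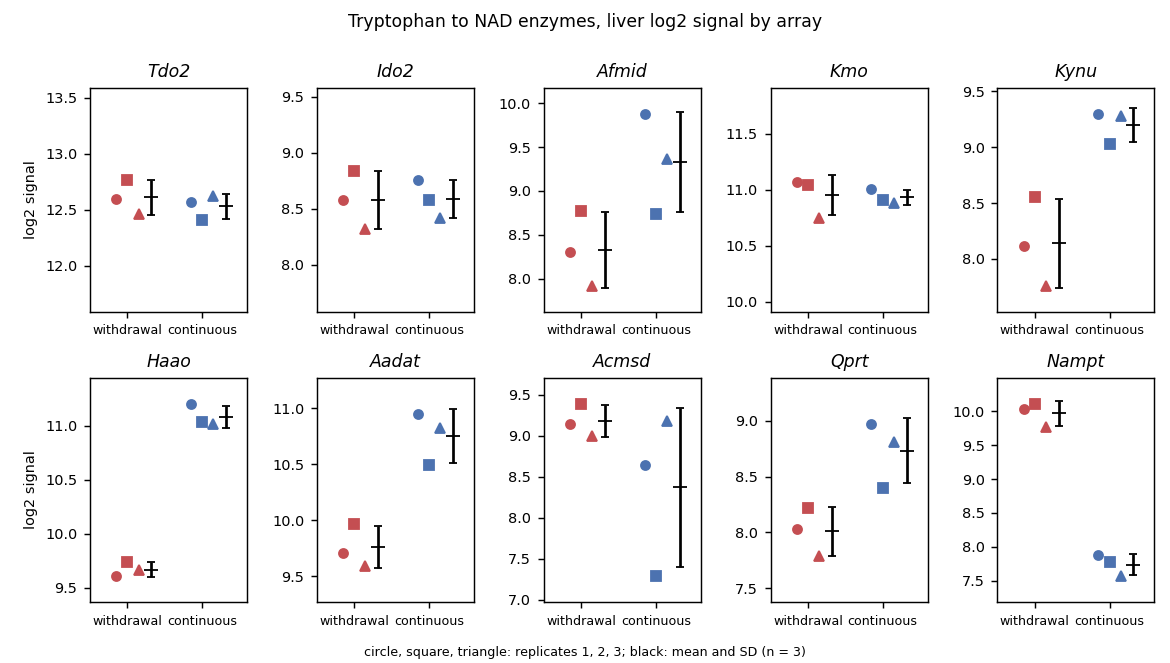
Log2 signal of the 10 enzymes on each array (y axis; every panel has its own range), withdrawal left in red and continuous NTBC right in blue, with the mean and SD of 3 arrays in black. Haao, Kynu, Aadat and Qprt are lower and Nampt is higher on all 3 withdrawal arrays, and Acmsd is widely spread with continuous NTBC (7.29 to 9.18).

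Tdo2, tryptophan dioxygenase, is the heme enzyme that commits tryptophan to this pathway in hepatocytes. Its log2 signal was 12.60, 12.77 and 12.46 on withdrawal replicates 1 to 3, against 12.57, 12.41 and 12.62 on continuous replicates 1 to 3. The groups overlapped, and the change of 0.08 had a 95% interval from -0.26 to 0.41 (limma adjusted p = 0.801). Ido2, a relative of the inducible dioxygenase Ido1, read 8.58, 8.84 and 8.32 after withdrawal, against 8.76, 8.58 and 8.42 with continuous NTBC. Its change was -0.01 (95% interval -0.40 to 0.38, limma adjusted p = 0.986). Ido1, its neighbour on chromosome 8 and the form induced by interferon, had 5.28, 5.02 and 5.61 after withdrawal and 5.32, 5.36 and 5.88 with continuous NTBC, a change of -0.22 (limma adjusted p = 0.567). For none of these dioxygenases did the groups separate.

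Afmid, the formamidase that turns formylkynurenine into kynurenine, had log2 signals of 8.31, 8.77 and 7.92 after withdrawal and of 9.88, 8.74 and 9.36 with continuous NTBC. The groups met only through continuous replicate 2, whose 8.74 lay 0.03 below the highest withdrawal array. The change was -0.99 (SE 0.29, 95% interval -1.64 to -0.35, limma adjusted p = 0.0614). It passed under 7 alternatives, which were quantile normalization (-1.15, adjusted p = 0.023), leaving out continuous replicate 2 (-1.29, 0.0254), array weights (-0.92, 0.0298), trend and robust eBayes (0.0389), probe sets with 1 symbol (0.0397), averaged probe sets (0.0404) and removal of dim probe sets (0.0457).

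Kmo, the hydroxylase of the outer mitochondrial membrane that makes 3-hydroxykynurenine, read 11.07, 11.04 and 10.75 after withdrawal and 11.01, 10.91 and 10.88 with continuous NTBC. The change of 0.02 had a 95% interval from -0.32 to 0.36 (limma adjusted p = 0.951), and the continuous arrays lay within the range of the withdrawal arrays. Kynu, the pyridoxal phosphate enzyme that cleaves 3-hydroxykynurenine to 3-hydroxyanthranilate, had 8.12, 8.55 and 7.76 after withdrawal, against 9.30, 9.03 and 9.28 with continuous NTBC. Every withdrawal array lay below every continuous one, with a gap of 0.48. Kynu fell by 1.06 (SE 0.20, 2.08-fold, limma adjusted p = 0.00928), and its call held with any 1 array left out (highest adjusted p = 0.0438).

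Haao, the iron dioxygenase that opens the ring of 3-hydroxyanthranilate, had 9.61, 9.74 and 9.67 after withdrawal and 11.20, 11.03 and 11.01 with continuous NTBC, which left a gap of 1.27 between groups whose SDs were 0.07 and 0.10. Haao fell by 1.41 (SE 0.14, 2.65-fold, limma adjusted p = 0.000236) and ranked 219 of all probe sets by p. With any 1 array left out the change stayed between -1.44 and -1.35.

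At the next step the product of Haao either closes into quinolinate or is removed by Acmsd, the decarboxylase that draws it away from NAD. Acmsd had log2 signals of 9.14, 9.39 and 9.0 after withdrawal, against 8.65, 7.29 and 9.18 with continuous NTBC. Continuous replicate 2, the array with the higher pancreas markers, was the low one, and the SD was 0.20 after withdrawal and 0.97 with continuous NTBC. The change was 0.80 (SE 0.38, 95% interval -0.05 to 1.66, limma adjusted p = 0.241), and 0.26 (adjusted p = 0.557) without continuous replicate 2.

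Qprt, which joins quinolinate to a ribose phosphate to form nicotinate mononucleotide, had 8.03, 8.22 and 7.79 after withdrawal, against 8.97, 8.40 and 8.81 with continuous NTBC. The groups did not overlap but came within 0.18 of each other. Qprt fell by 0.71 (SE 0.19, 1.64-fold, limma adjusted p = 0.0409), the weakest of the 5 calls. It was lost with each array centred on its median (-0.61, adjusted p = 0.118), without withdrawal replicate 1 (adjusted p = 0.133), 2 (0.0636) or 3 (0.117), and without continuous replicate 1 (0.0797) or 3 (0.108). It held without continuous replicate 2 (-0.88, adjusted p = 0.0253).

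Aadat, an aminotransferase of the mitochondrial matrix, makes kynurenic acid from kynurenine and also serves lysine breakdown. It had 9.71, 9.97 and 9.59 after withdrawal and 10.95, 10.49 and 10.82 with continuous NTBC, with no overlap. Aadat fell by 1.0 (SE 0.17, 2.0-fold, limma adjusted p = 0.00574), and the call held with any 1 array left out. Before rounding the fall was just short of 2-fold (withdrawal over continuous, 0.501). Kyat3, another enzyme able to form kynurenic acid, went the other way, with 10.78, 10.85 and 10.69 after withdrawal and 9.74, 9.26 and 10.11 with continuous NTBC. Kyat3 rose by 1.07 (SE 0.21, 2.10-fold, limma adjusted p = 0.0095). Kyat1 (-0.17) and Got2 (0.07, and -0.18 on a dimmer probe set), which can also use kynurenine, did not pass.

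Nampt, which condenses nicotinamide with phosphoribosyl pyrophosphate and sets the pace of NAD salvage, was the member with the largest change. Its log2 signal was 10.03, 10.11 and 9.77 after withdrawal, against 7.88, 7.77 and 7.57 with continuous NTBC. The lowest withdrawal array lay 1.89 above the highest continuous array. Nampt rose by 2.23 (SE 0.16, 95% interval 1.87 to 2.59, limma adjusted p = 3.31e-05) and ranked 60 of all probe sets by p. No other salvage or assembly gene was called. Of 7 measured beside Nampt, 0 passed in limma in either direction, where 9.40% of all probe sets did. Nmnat1, which makes NAD from the mononucleotide, was the 1 with an unadjusted p under 0.05 (change 0.55, adjusted p = 0.185). Naprt, the nicotinate counterpart of Nampt, had a change of -0.39 (adjusted p = 0.313) and Nadsyn1, which amidates the last intermediate of the tryptophan route, of -0.23 (adjusted p = 0.49).

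**Figure D2:**
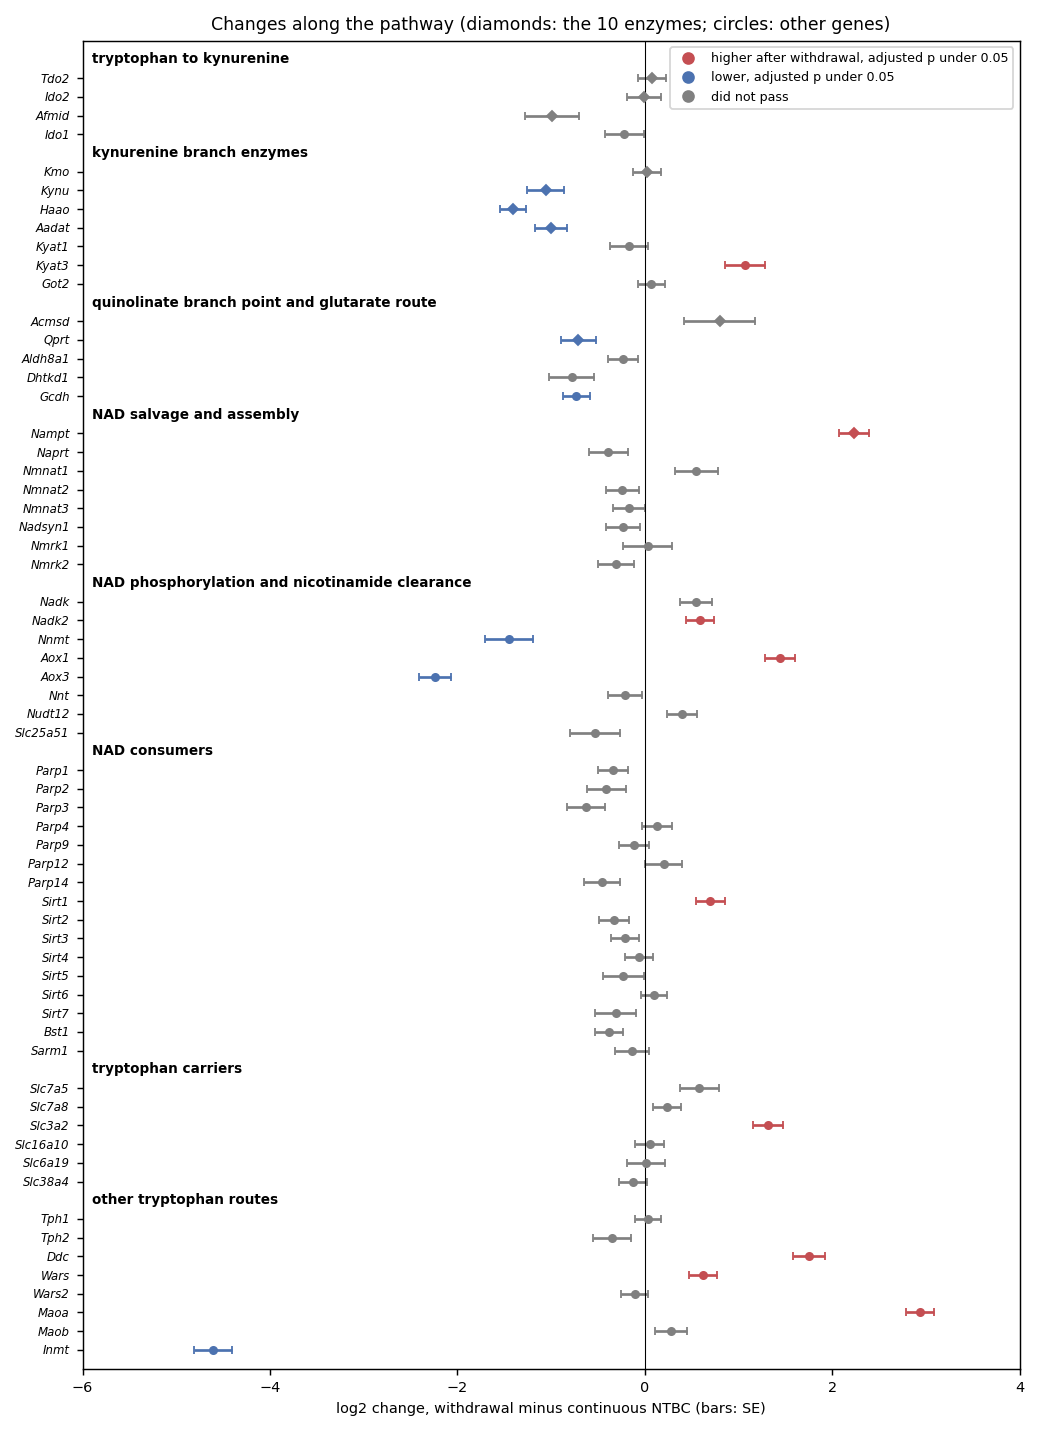
Log2 change (x axis, withdrawal minus continuous NTBC, bars are the SE of limma) of the 10 enzymes (diamonds) and 52 other genes of the pathway (circles) by step, red where higher and blue where lower past the threshold, grey otherwise. Nampt stands alone in the salvage list at 2.23, and Inmt (-4.61), Maoa (2.94) and Aox3 (-2.24) have the widest changes among the other genes.

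Beyond the 10 enzymes, 52 of 54 listed genes of adjoining steps were measured. Of these, 8 rose and 4 fell, a share of 23.1% called against 9.40% of all probe sets and 25.3% of the brightest ones as defined above, and 34 of the 52 were as bright. Their median change was -0.14. The share lies near that of the brightest probe sets, and the results below concern single genes.

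Downstream of the Acmsd branch 1 of 3 measured genes fell, where 3.20% of all probe sets and 7.66% of the brightest ones were called lower. Gcdh, which oxidises glutaryl-CoA from tryptophan and lysine, had 10.34, 10.32 and 10.28 after withdrawal and 11.15, 10.98 and 10.99 with continuous NTBC. It fell by 0.73 (SE 0.14, limma adjusted p = 0.00919), and without withdrawal replicate 1 the adjusted p was 0.0515. Dhtkd1, of the oxoadipate dehydrogenase before it, had a change of -0.78 (adjusted p = 0.0699) and groups that did not overlap. Whether Dhtkd1 passed depended on the setting, with a call under 6 of 13 alternatives (lowest limma adjusted p = 0.0233). Aldh8a1, which follows Acmsd, had a change of -0.23 (adjusted p = 0.419).

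Of 8 genes of NAD phosphorylation and nicotinamide clearance, 2 fell and 2 rose. In either direction 9.40% of all probe sets and 25.3% of the brightest ones were called. Nnmt, which methylates nicotinamide for excretion, had 6.12, 6.61 and 6.07 after withdrawal and 7.31, 7.53 and 8.30 with continuous NTBC. Nnmt fell by 1.45 (SE 0.26, limma adjusted p = 0.00603). The aldehyde oxidases that oxidise methylnicotinamide to pyridones moved in opposite directions, and their genes are neighbours. Aox3 had 9.33, 9.59 and 9.64 after withdrawal, against 12.01, 11.54 and 11.73 with continuous NTBC, and fell by 2.24 (SE 0.17, limma adjusted p = 4.37e-05). Aox1 had 10.86, 10.95 and 10.74 after withdrawal, against 9.60, 9.22 and 9.42 with continuous NTBC, and rose by 1.44 (SE 0.16, limma adjusted p = 0.000365). Nadk2, the mitochondrial NAD kinase, rose by 0.59 (SE 0.15, limma adjusted p = 0.0353), a call lost with quantile normalization and without continuous replicate 2 or 3 or any 1 withdrawal array (highest adjusted p = 0.132). Its cytosolic counterpart Nadk had a change of 0.55 (adjusted p = 0.0697) and passed under 3 of 13 alternatives (lowest limma adjusted p = 0.0267).

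Among 16 measured NAD consumers, 1 rose and 0 fell in limma, or 6.25% called against 9.40% of all probe sets. At an unadjusted p under 0.05, 3 were lower and 1 was higher. That cut was a loose one, since a probe set with an unadjusted limma p of 0.0499 ranked 8112 of 34472. Sirt1, an NAD-dependent deacetylase, had 7.78, 7.85 and 7.88 after withdrawal and 7.03, 7.05 and 7.33 with continuous NTBC. It rose by 0.70 (SE 0.15, limma adjusted p = 0.0154), but did not pass with quantile normalization or without withdrawal replicate 1 or 2 or continuous replicate 2 (highest adjusted p = 0.0753). Parp3, an ADP-ribosyltransferase, had the next smallest p (-0.63, adjusted p = 0.0831), and Bst1, which cleaves NAD, had a change of -0.38 (adjusted p = 0.159).

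Of 6 tryptophan carriers 1 rose, where 6.21% of all probe sets and 17.7% of the brightest ones were called higher. Slc3a2, the heavy chain shared by several amino acid exchangers, had 9.79, 9.93 and 9.46 after withdrawal and 8.37, 8.52 and 8.35 with continuous NTBC (change 1.31, SE 0.16, limma adjusted p = 0.000862). Its tryptophan-carrying partner Slc7a5 had a change of 0.58 (adjusted p = 0.122) and Slc7a8, another partner, of 0.24 (adjusted p = 0.367).

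Genes that lead tryptophan elsewhere held the widest changes, with 3 of 8 higher and 1 lower. Of all probe sets 6.21% were called higher and 3.20% lower (17.7% and 7.66% of the brightest ones). Inmt, which methylates tryptamine and related amines, had 6.69, 6.69 and 6.49 after withdrawal, against 11.66, 10.94 and 11.11 with continuous NTBC. It fell by 4.61 (SE 0.20, 24.5-fold, limma adjusted p = 1.62e-06) and ranked 7 of all probe sets. Maoa, which oxidises serotonin and tryptamine, had 9.94, 9.75 and 9.96 after withdrawal and 6.92, 7.07 and 6.84 with continuous NTBC. Maoa rose by 2.94 (SE 0.15, 7.67-fold, limma adjusted p = 4.48e-06), while Maob, its neighbour, had a change of 0.28 (limma adjusted p = 0.352). Ddc, the decarboxylase that forms tryptamine and serotonin, had 10.22, 10.19 and 9.94 after withdrawal and 8.64, 8.11 and 8.34 with continuous NTBC. It rose by 1.75 (SE 0.17, 3.37-fold, limma adjusted p = 0.000221). Of the genes of this list that did not pass, Tph2 had the smallest p (change -0.35, limma adjusted p = 0.333). Its signal lay above the lower quartile on 3 arrays only. Tph1 had a change of 0.03 (limma adjusted p = 0.93). Wars, which charges transfer RNA with tryptophan, rose by 0.62 (SE 0.15, limma adjusted p = 0.0306), a call lost with quantile normalization and without continuous replicate 2 or 3 or any 1 withdrawal array (highest adjusted p = 0.128).

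**Figure D3:**
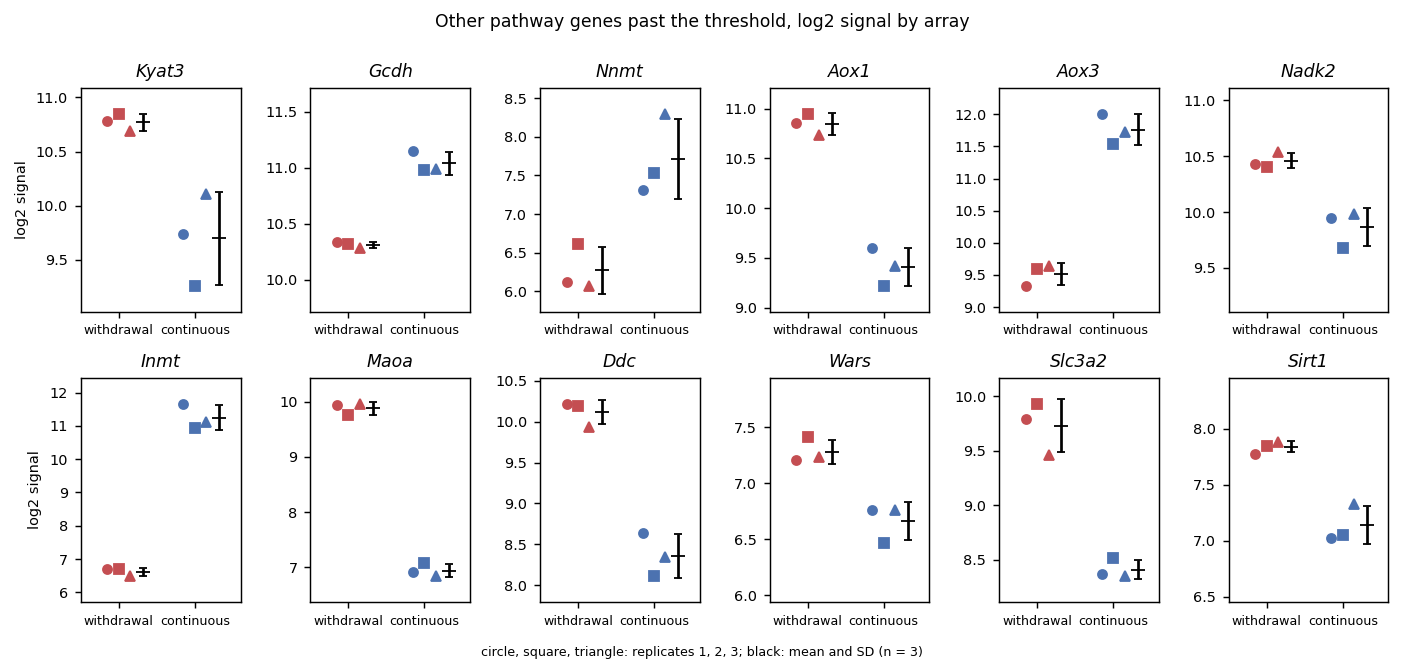
Log2 signal on each array (y axis; every panel has its own range) of the 12 other pathway genes past the threshold, withdrawal left in red and continuous NTBC right in blue, with the mean and SD of 3 arrays in black. The groups do not overlap in any panel, which largely follows from picking genes past the threshold. They do not overlap for 21 of the 52 other pathway genes and for 27.6% of all probe sets. The widest gap is that of Inmt (4.25).

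Genes that share a branch or a reaction were also set against each other by the difference between their changes, for 3 pairs picked after their values were seen. The change of Acmsd minus that of Qprt was 1.52, that of Kyat3 minus Aadat 2.07 and that of Aox1 minus Aox3 3.68. Since the pairs were picked for these values, they are given as a description, with no test. The Acmsd and Qprt difference was 1.14 without continuous replicate 2, where both enzymes had their lowest continuous signal.

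**Figure D4:**
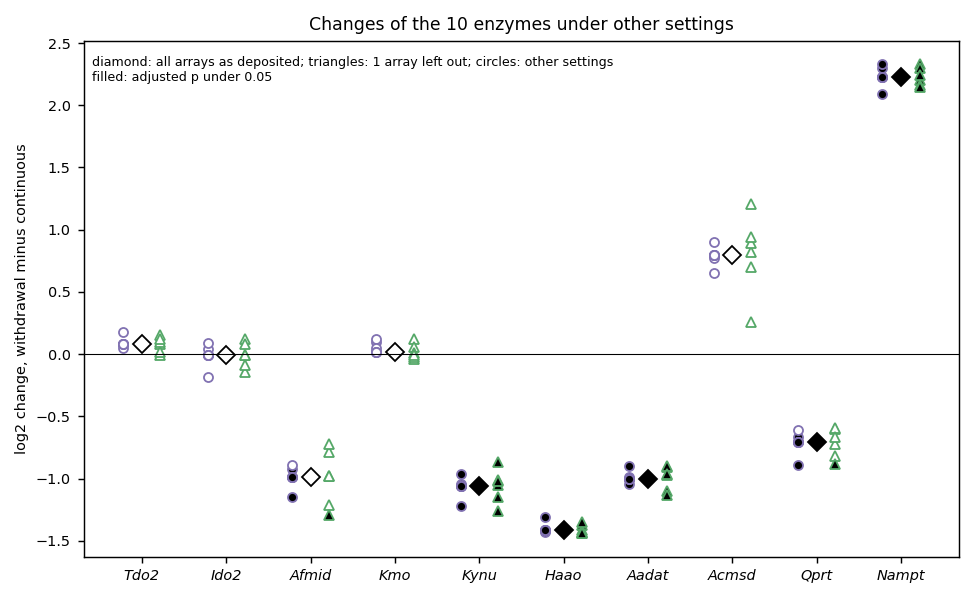
Log2 change (y axis, withdrawal minus continuous NTBC) of each enzyme with all arrays as deposited (diamonds), with 1 array left out (triangles) and under other settings (circles), filled where the adjusted p was under 0.05. Nampt (2.09 to 2.33) and Haao (-1.44 to -1.31) move least for their size, Acmsd runs from 0.26 to 1.21, and Tdo2, Ido2 and Kmo scatter about 0.

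Predicted genes, known by the form of their symbol, were left out of a search by likeness. The genes whose log2 signal followed a member most closely over the 6 arrays were listed for the called members with the smallest p in each direction. For Nampt these were Tmem43 (Pearson r = 0.9996), Snap23 (0.9991) and Lrrc28 (0.9990), and for Haao they were Ifitm3 (0.9990), Dis3l2 (0.9979) and Inmt (0.9978). The arrays fall into 2 groups, so such values mostly restate the difference between groups.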

How the data were processed

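Liver RNA was measured on 6 whole-transcript arrays, 1 per sample. In the deposited table each probe set has a normalized intensity, not on a log scale, for every array. Transcriptome Analysis Console was used, per the submitters' processing notes, with no version; how background was corrected and arrays normalized is not given in the sources used here. No detection flags were given, so a low signal is no statement of absence, and precision is limited by 3 arrays per group.

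A model of log2 intensity was fitted to 34472 probe sets by limma (version 3.58.1, R version 4.3.3; lmFit, eBayes, 4 residual and 10.2 total degrees of freedom), withdrawal minus continuous NTBC, two-sided, with no filter, a threshold of 0.05 and p-values adjusted by Benjamini-Hochberg over the whole table. Genes were named from platform annotation where a probe set has 1 symbol (23521 probe sets; 1814 have several and 9137 none). The probe set with the highest mean was used per gene. The fit was tested on simulated data, where it recovered 63 of 100 probe sets changed by a log2 of 1 and 99 of 100 changed by 2, with 12 false calls. Only those probe sets of the 34472 were changed there, a far smaller share than the 9.40% called here. Spreads were drawn from the fitted prior. The recovered counts therefore give no rate of recovery for the real arrays. Between 0.748% and 1.8% of probe sets had identical values in any pair of arrays, so none was a copy.

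The members, lists and tests were chosen with earlier results of these data known. Named were all members, Fah and Hpd, other listed genes past the threshold, and the genes most like Nampt and Haao. Listed genes not past it were named for the smallest p of their list, a place near a member in the pathway or kinship with a named gene. Parp10 and Cd38 had no probe set with their symbol alone and were not analysed here. Alternatives were quantile normalization, median centring, a block for the replicate number, removal of dim probe sets, array weights, trend and robust eBayes, probe sets with 1 symbol, averaged probe sets per gene, low signals raised to the lower quartile, a 2-fold threshold and each array left out.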

Additional observations from a re-analysis of the deposited data

How the results depend on the processing

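The calls of Nampt, Haao, Kynu and Aadat held with each array left out, both normalizations, the replicate block and the other limma settings, apart from the 2-fold threshold, under which 2 members were lower (Haao and Kynu). The number of lower members ran from 3 to 5 with 1 array left out, and that of higher members was 1 throughout. Other pathway genes higher numbered 5 with quantile normalization, 5 at 2-fold and 5 to 9 with 1 array left out. Probe sets past the threshold numbered 5588 with array weights, 1178 at 2-fold and 1454 to 4210 with 1 array left out, the lowest without withdrawal replicate 1, then 1795 without withdrawal replicate 2 and 2078 without continuous replicate 2. Over all probe sets the median change was -0.08 as deposited and 0.02 after median centring, and the share of calls that were higher was 66% and 77.2% (58.3% with quantile normalization). Same-numbered arrays had deviations correlated at 0.16, -0.12 and 0.22, so the numbers were not taken as pairs. With the replicate block, 3298 probe sets passed, 1 member was higher and 3 lower (Qprt at -0.71, adjusted p = 0.0539), and 7 other genes were higher (without Wars) and 5 lower. Changes near 0 turned sign and did not pass. With 1 array left out Tdo2 ran from -0.0033 (without withdrawal replicate 2) to 0.15 and Ido2 from -0.14 to 0.12, above 0 without withdrawal replicate 3 and, at 0.08, without continuous replicate 1. Ido2 had 0.04 with array weights and 0.09 with median centring. Kmo ran from -0.04 to 0.12 with 1 array left out, with -0.04 and -0.02 without withdrawal replicates 1 and 2 and -0.01 without continuous replicate 3. The cause of these shifts was not tested. With 3 arrays per group and no background level, small changes and folds from low signals stay uncertain.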

Other observations

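The arrays of a group differed in how often they held the lowest or highest signal of the 10 enzymes. Withdrawal replicate 3 had the lowest signal for 9 of the 10 and withdrawal replicate 2 the highest for 9, and continuous replicate 1 had the highest for 8. The lowest continuous signal was on replicate 2 for 6 of the 10 and on replicate 3 for 4. Among the 25% of probe sets with the highest mean signal the same arrays led, with withdrawal replicate 3 lowest for 66% of them, withdrawal replicate 2 highest for 50.5% and continuous replicate 1 highest for 61.2%. Over all probe sets these shares were 35.4%, 32.6% and 33.1%. The SD of the 10 enzymes ran from 0.07 to 0.43 after withdrawal and from 0.07 to 0.97 with continuous NTBC, with medians of 0.20 and 0.16.

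Ifitm3 is an interferon-induced membrane protein and, predicted genes aside, the gene most like Haao in these arrays. Its log2 signals were 8.44, 8.70 and 8.53 after withdrawal and 11.31, 11.19 and 11.09 with continuous NTBC. Ifitm3 fell by 2.64 (SE 0.15, limma adjusted p = 8.27e-06), more than Haao itself. Since it was picked for its likeness to Haao on these arrays, its direction and small p follow from that choice.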
